A study of Mus musculus with 30 samples.

Results

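The phase II conjugation enzymes of the mouse small intestine were followed through 3 genotypes and 2 tissue fractions. They comprise the glutathione S-transferases (GST; symbols beginning Gsta, Gstk, Gstm, Gsto, Gstp, Gstt or Gstz), the cytosolic sulfotransferases (Sult1 to Sult6) and the UDP-glucuronosyltransferases (Ugt1 and Ugt2). A gene was taken as a member when its symbol matched one of these stems and the array carried a probe set annotated to it alone, and of several probe sets for 1 gene the brightest on average over the 30 arrays was kept. This gave 41 of the 18194 genes with a probe set of their own, namely 20 GST, 13 SULT and 8 UGT genes. All 8 UGT genes were of the Ugt2 class, because the 3 probe sets for Ugt1a carry 8 symbols each and were not used. Probe sets shared by Gsta1, Gsta2 and Gm3776, and by Ugt2a1 and Ugt2a2, were left out for the same reason.

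The mice were 2 months old, and small intestinal villi or crypts were collected 5 days after gene deletion. The 3 genotypes were control, Rb KO (deletion of Rb, the retinoblastoma gene Rb1, which restrains entry into the cell cycle) and Rb/Myc DKO (deletion of both Rb and Myc, a transcription factor that drives growth and proliferation). Each genotype was represented by 5 villus and 5 crypt arrays, which makes 6 groups of total RNA hybridised to Affymetrix arrays. Deletion used Ah-cre, a Cre recombinase under the promoter of the rat Cyp1a1 gene, which ligands of the aryl hydrocarbon receptor switch on. That receptor also regulates several conjugation genes, and the labels give neither the inducing agent nor whether the controls received it or carried the Cre.

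Conjugation makes lipophilic compounds soluble enough to leave the cell. GSTs couple electrophiles to glutathione, sulfotransferases move a sulfate from the donor PAPS onto phenols and steroids, and UGTs, which sit in the endoplasmic reticulum, attach glucuronic acid from UDP-glucuronic acid. The products leave the enterocyte through ABC transporters, and intestinal villi, as the first tissue to meet compounds from food and bile acids from the lumen, carry much of this machinery. The antioxidant factor Nrf2 (Nfe2l2), the aryl hydrocarbon receptor and the nuclear receptors PXR and CAR are its best known regulators.

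All values are log2 expression on the deposited scale, and differences are log2 differences with their standard error, with p-values from limma adjusted by Benjamini and Hochberg over all 12736 tested genes and a threshold of 0.05. Rb1 fell in Rb KO villi by 1.46 ± 0.16 (SE, 5 against 5 arrays, adjusted p = 6.85e-06) and in Rb KO crypts by 1.68 ± 0.18 (adjusted p = 2.67e-05). Myc fell in DKO crypts against Rb KO crypts by 1.60 ± 0.16 (adjusted p = 1.85e-05), while in villi, where its level was low, the difference was -0.52 ± 0.22 and did not pass (adjusted p = 0.143). The enterocyte marker list averaged 13.97 to 14.18 on the villus arrays and 12.09 to 13.11 on the crypt arrays, and the crypt marker list 7.99 to 10.30 on villus arrays and 12.10 to 12.78 on crypt arrays. Villus array medians lay between 6.28 and 6.34 and crypt medians between 6.67 and 6.73, so the fractions appear to have been normalised separately, and their levels are set side by side without a test. Xist marked controls 1 and 4, Rb KO 3 and DKO 4 and 5 as female in both fractions. The villus array of DKO 1 carried liver transcripts, with albumin (Alb) at 11.65 against 5.98 to 6.51 on the 14 other villus arrays, and the crypt array of the same number had Alb at 8.55. Calls of the members and named genes that were lost without DKO 1 are named beside the results. The pancreas marker list also stood apart on some arrays. Crypt arrays of DKO 1, 3 and 4 had 10.34 to 11.999, and those of DKO 2 and 5 had 8.03 and 8.64. Villus arrays of DKO 1, 3 and 4 had 9.47, 8.54 and 8.81, and those of DKO 2 and 5 had 7.47 and 8.02. Control villus arrays ranged from 7.59 to 8.15 and Rb KO villus arrays from 7.41 to 7.89. In crypts, high values also occurred in the other genotypes. The list was at 10.50 on control crypt array 1, against 8.17 to 9.03 on the other control crypt arrays. On Rb KO crypt array 3 it was at 10.06, against 8.27 to 8.66 on the other Rb KO crypt arrays.

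Of the 41 members, 28 had a mean above the filter of 6.03 (the 30th percentile of all genes) and were tested: 18 GST, 5 SULT and 5 UGT genes. The nearest member above the filter was Sult5a1 at 7.08 and the nearest below it was Sult1a1 at 5.91. The 13 untested members were Gsto2, Gstt4, Sult1a1, Sult1c1, Sult1e1, Sult2a2, Sult2a8, Sult3a1, Sult4a1, Sult6b1, Ugt2b1, Ugt2b37 and Ugt2b38. On no array did 12 of the 13 exceed 6.91, while Ugt2b38 reached 11.83.

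The brightest member of each well-measured class, apart from Sult5a1, was expressed in both fractions. Gstp1, the pi-class GST, averaged 13.60 ± 0.26 (SD, n = 5) in control villi and 13.94 ± 0.07 in control crypts. Gstm3, of the mu class, averaged 13.83 ± 0.30 and 13.57 ± 0.23, and Ugt2b34 averaged 13.78 ± 0.08 and 13.48 ± 0.10 in the same order. Gsto1, an omega-class enzyme that reduces dehydroascorbate rather than conjugating glutathione, averaged 13.48 ± 0.16 in control villi and 13.42 ± 0.07 in control crypts. Among the sulfotransferases Sult1d1, which sulfates catecholamines in mice, averaged 12.63 ± 0.20 and 12.29 ± 0.33. Other class leaders were Gsta4 (12.15 ± 0.52 in control villi), Gstk1 (12.64 ± 0.24), Gstt1 (11.57 ± 0.28), Gstz1 (9.25 ± 0.11), Sult2b1 (12.36 ± 0.21) and Sult5a1 (7.0 ± 0.12).

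In villi, 10 of the 28 tested conjugation genes were lower after loss of Rb. Of the 28 tested members 10 (35.7%) fell and 0 rose: 7 of 18 GST genes, 1 of 5 SULT genes (Sult1d1) and 2 of 5 UGT genes. The share of all tested genes past the threshold in the same comparison was 17.5% lower and 16.8% higher, so the background held about as many genes that rose as genes that fell. Counting both directions, 35.7% of the members and 34.3% of all tested genes passed. At an unadjusted p under 0.05, limma gave 12 members lower and 1 higher. The median difference of the 28 was -0.16 against -0.02 over all tested genes, and 25 of the 28 differences were below 0. The mu class had the lowest median of the GST classes with 3 or more tested genes, at -0.57, with 4 of its 7 genes past the threshold. Groups of 5 arrays that did not overlap at all were found for 5 of the 28 members, beside 20.7% of all tested genes.

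Gstm4, a mu-class GST, had the widest difference. Its values were 9.97, 10.23, 10.05, 9.59 and 10.91 on the control villus arrays and 8.84, 9.23, 9.0, 9.52 and 9.05 on the Rb KO villus arrays. Every Rb KO array lay below every control array, and the mean fell by 1.02 ± 0.18 (2.03-fold, adjusted p = 0.000497). On the DKO villus arrays Gstm4 was 10.07, 9.98, 10.06, 10.05 and 9.996, within the control range and above every Rb KO array, 0.90 ± 0.18 above the Rb KO mean (adjusted p = 0.00876).

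Gstm7 and Gstm6 belong to the same class. Gstm7 was 9.22, 9.73, 9.49, 9.15 and 9.95 in control villi and 8.64, 9.13, 8.70, 9.0 and 8.87 in Rb KO villi, and the groups did not overlap (-0.64 ± 0.14, adjusted p = 0.00268). With the mean of both its probe sets the difference was -0.40, because the dimmer probe set differed by -0.17. Gstm6 was 11.04, 11.07, 11.16, 10.82 and 11.31 in control villi and 10.15, 10.55, 10.25, 10.92 and 10.70 in Rb KO villi, where array 4 reached into the control range (-0.57 ± 0.13, adjusted p = 0.00267).

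Gstm1, another mu-class GST, spread more widely. Control villi gave 12.63, 12.23, 12.45, 12.01 and 13.30 and Rb KO villi 11.06, 11.82, 11.37, 12.60 and 12.02, so the groups overlapped (-0.75 ± 0.26, adjusted p = 0.0358). All 4 of its probe sets had lower means in Rb KO villi, with differences of -0.75 to -0.88. The Gstm1 call was lost with a crypt marker score in the model, with only the 2 groups in the fit, and without control array 1, 3 or 5 or Rb KO array 1, 2 or 3, and the adjusted p over all alternatives ran from 0.00462 to 0.1. The remaining mu-class genes did not pass, with Gstm2 at 9.41 ± 0.40 in control and 9.37 ± 0.42 in Rb KO villi, Gstm3 at 13.83 ± 0.30 and 13.46 ± 0.27, and Gstm5 at 8.86 ± 0.23 and 8.97 ± 0.20. The 7 mu-class genes lie in 1 cluster on chromosome 3 in the RefSeq annotation, in the order Gstm5, Gstm7, Gstm6, Gstm3, Gstm2, Gstm1 and Gstm4, and close paralogs of this kind may share probe signal.

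Outside the mu class, 3 GST genes fell in Rb KO villi. Gstt3, a theta-class GST of the kind that acts on small halogenated compounds, was 10.22, 10.61, 10.40, 10.40 and 10.73 in control villi and 9.53, 9.70, 9.63, 9.54 and 9.78 in Rb KO villi. The groups did not overlap, and the difference of -0.83 ± 0.09 had the smallest adjusted p of the 28 members (5.47e-06). Its neighbours in the theta-class cluster did not pass: Gstt1 differed by -0.14 (adjusted p = 0.344) and Gstt2 was 9.82 ± 0.18 in control and 9.70 ± 0.10 in Rb KO villi. Gsto1 was 13.28, 13.55, 13.59, 13.33 and 13.66 in control villi and 13.01, 13.02, 12.89, 12.94 and 12.94 in Rb KO villi, again with no overlap (-0.52 ± 0.07, adjusted p = 4.81e-05). Its second probe set differed by -0.45. Gstk1, a kappa-class enzyme of mitochondria and peroxisomes, differed by -0.55 ± 0.17 (adjusted p = 0.0205) with overlapping groups, and that call was lost without control array 2 (adjusted p = 0.0578) or Rb KO array 1 (adjusted p = 0.0533).

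Ugt2a3, a UGT that conjugates bile acids, had the largest difference among the UGT genes in Rb KO villi. Control villi gave 11.78, 12.10, 12.02, 11.84 and 11.87, Rb KO villi 11.11, 11.27, 11.14, 11.37 and 11.38, and DKO villi 11.24, 11.26, 11.26, 11.48 and 11.35. Both mutant groups lay below every control array, with differences of -0.67 ± 0.08 for Rb KO (adjusted p = 1.31e-05) and -0.60 ± 0.08 for DKO against control (adjusted p = 5.69e-05). Ugt2b34, at the top of the scale, differed by only -0.16 ± 0.06 between Rb KO and control (adjusted p = 0.0424), and this call was lost under 10 of 23 alternatives, which were no filter, quantile normalisation, a crypt marker score in the model, only the 2 groups in the fit, and the loss of control array 2, 3 or 5 or Rb KO array 1, 3 or 5. The 3 other measured UGT genes, Ugt2b35, Ugt2b36 and Ugt2b5, did not pass in any villus comparison.

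Sult1d1 was the single sulfotransferase past the threshold in Rb KO villi. It was 12.47, 12.65, 12.68, 12.43 and 12.93 in control villi and 12.18, 12.45, 11.98, 12.08 and 11.89 in Rb KO villi, with Rb KO array 2 above the lowest control array (-0.52 ± 0.11, adjusted p = 0.00217). Its second probe set differed by -0.45. Sult1b1, which sulfates thyroid hormones and phenols, averaged 12.45 ± 0.19 in control and 12.20 ± 0.18 in Rb KO villi and did not pass.

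**Figure D1:**
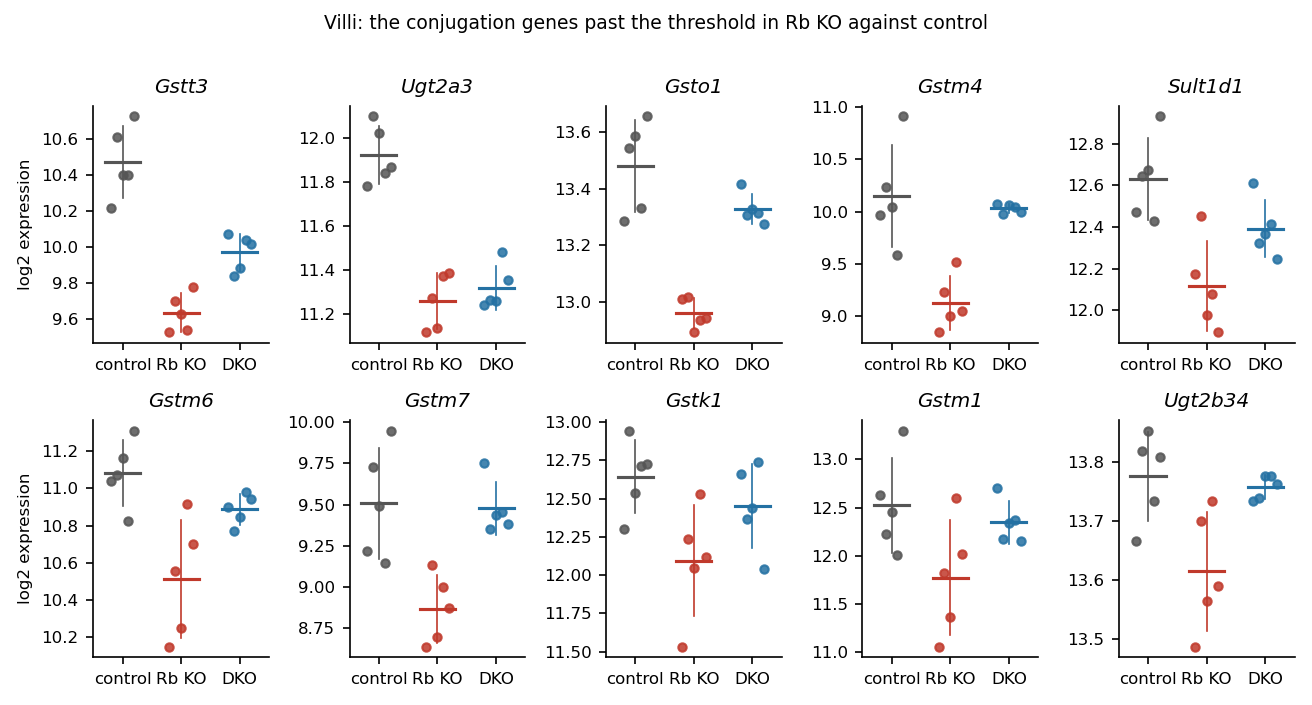
Log2 expression (y axis, a separate scale for each gene) of the 10 conjugation genes past the threshold in Rb KO against control villi, with 1 point per array for control, Rb KO and Rb/Myc DKO (DKO) villi, the mean as a horizontal line and the SD as a vertical line (n = 5). Rb KO arrays lie below all control arrays for 5 genes (Gstt3, Ugt2a3, Gsto1, Gstm4 and Gstm7), and Ugt2a3 stays at the Rb KO level in DKO villi.

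Other cell types and RNA quality moved with the same comparison. Of 10 lymphocyte markers, 8 were lower in Rb KO villi and 0 higher, and the list averaged 10.38 to 11.04 across the control arrays, 9.83 to 10.51 across the Rb KO arrays and 10.63 to 10.93 across the DKO arrays. None of these markers was absent, with Cd3e between 8.78 and 9.50 in control and Rb KO villi. Of 9 enteroendocrine markers, 3 were lower (Gcg at -1.68). Among exocrine pancreas markers 1 of 7 was lower (Clps at -0.72), and among goblet cell markers 1 of 8 was higher (Agr2 by 0.73), with 4 higher at an unadjusted p under 0.05. Of 9 crypt markers 0 passed, with a median difference of 0.55 and 2 higher at an unadjusted p under 0.05 in limma. Of 14 enterocyte markers 3 were lower (Slc2a2 at -0.50, Slc5a1 at -0.40 and Vil1 at -0.16). The difference between the 3′ and 5′ Gapdh control probe sets ran from -0.211 to -0.112 over control villi, from -0.0903 to 0.0115 over Rb KO villi and from -0.108 to -0.0666 over DKO villi, so the control arrays overlapped neither the Rb KO nor the DKO arrays. The same difference for beta-actin overlapped, at 0.142 to 0.235 in control villi and 0.193 to 0.290 in Rb KO villi. With a crypt marker score in the model the calls of Gstm1 and Ugt2b34 were lost. Beyond that score, the part of these markers and of RNA quality in the lower conjugation genes was not tested. In these bulk samples fewer cells of a type and less RNA per cell cannot be told apart.

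The promoters of 5 of the lower genes are shown to set their motifs beside this shared direction. Each window runs from 250 bases before to 50 bases after the start of transcription in RefSeq on build GRCm38.p6, on the minus strand in all 5 cases: chr3:108044807-108045106 for Gstm4, chr3:107931565-107931864 for Gstm7, chr3:108017769-108018068 for Gstm1, chr10:75781365-75781664 for Gstt3 and chr5:87568957-87569256 for Sult1d1. Capitals mark a match on either strand to the antioxidant response element TGACNNNGC, bound by Nrf2, or to GCGTG, the core of the xenobiotic response element bound by the aryl hydrocarbon receptor.
Gstm4: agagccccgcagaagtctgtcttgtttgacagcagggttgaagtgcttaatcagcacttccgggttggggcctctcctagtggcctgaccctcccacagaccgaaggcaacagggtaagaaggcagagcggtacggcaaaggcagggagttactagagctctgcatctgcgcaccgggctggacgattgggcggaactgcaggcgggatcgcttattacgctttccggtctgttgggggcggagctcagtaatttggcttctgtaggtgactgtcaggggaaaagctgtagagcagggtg
Gstm7: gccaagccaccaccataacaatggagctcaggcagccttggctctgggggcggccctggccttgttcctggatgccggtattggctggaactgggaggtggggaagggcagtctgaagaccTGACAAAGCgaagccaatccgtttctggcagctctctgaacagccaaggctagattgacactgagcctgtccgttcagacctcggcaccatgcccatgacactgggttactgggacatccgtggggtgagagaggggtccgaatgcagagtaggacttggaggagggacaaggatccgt
Gstm1: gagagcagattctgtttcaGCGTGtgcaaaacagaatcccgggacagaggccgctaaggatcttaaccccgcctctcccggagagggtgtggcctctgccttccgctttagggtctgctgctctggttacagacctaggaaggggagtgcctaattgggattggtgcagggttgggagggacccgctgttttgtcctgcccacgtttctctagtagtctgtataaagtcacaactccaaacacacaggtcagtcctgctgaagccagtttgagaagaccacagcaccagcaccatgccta
Gstt3: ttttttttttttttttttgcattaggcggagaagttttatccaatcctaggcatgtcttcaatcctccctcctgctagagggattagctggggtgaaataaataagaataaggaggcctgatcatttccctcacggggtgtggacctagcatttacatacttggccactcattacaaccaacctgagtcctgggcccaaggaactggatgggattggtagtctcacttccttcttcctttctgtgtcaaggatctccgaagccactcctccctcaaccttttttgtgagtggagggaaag
Sult1d1: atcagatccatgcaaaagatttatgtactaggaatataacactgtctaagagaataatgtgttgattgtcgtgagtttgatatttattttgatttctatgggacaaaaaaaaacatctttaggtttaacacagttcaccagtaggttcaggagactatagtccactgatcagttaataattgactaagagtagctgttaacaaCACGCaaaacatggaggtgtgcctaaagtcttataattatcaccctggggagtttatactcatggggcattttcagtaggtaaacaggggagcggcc

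Windows were found for 37 of the 41 members, 48 in all since some genes have several starts. The antioxidant response element was present in 3 of the 48 (those of Gsta3, Gstm5 and Gstm7) beside 12.4% of all promoter windows of the same length. The xenobiotic core was present in 10 of the 48 beside 32.4%. The E2F letters TTTGGCGC or TTTCGCGC, a site of the factors that Rb binds, were present in 1 window (Gsto2) beside 0.813%, and the E-box CACGTG bound by Myc in 0 beside 7.15%. Among the 10 genes lower in Rb KO villi, Gstm7 held the antioxidant letters, Gstm1 and Sult1d1 the xenobiotic core, and none the E2F letters or the E-box. A match describes letters in the window and is no evidence of binding.

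Villi that had lost both Rb and Myc had higher levels of 5 GST genes than villi that had lost Rb alone. Of the 28, 5 (17.9%) rose and 0 fell, namely Gstm4, Gstm7, Gstm5, Gsto1 and Gstt3. The background was 6.56% of tested genes higher and 1.96% lower. At an unadjusted p under 0.05, limma gave 14 members higher and 0 lower, and the members' median difference was 0.27 against 0.00 for all tested genes, with 26 of 28 above 0. The mu class again had the widest median, 0.49, with 7 of 7 differences above 0 and 3 past the threshold. Because this comparison uses the same Rb KO arrays as the previous one, the opposite signs of the 2 sets of differences are not independent of each other. Groups did not overlap for 5 members, beside 9.61% of all tested genes.

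Gstm7 reached 9.75, 9.35, 9.44, 9.46 and 9.38 in DKO villi, above every Rb KO array (0.61 ± 0.14, adjusted p = 0.0187). With the mean of both probe sets its difference was 0.31, and without Rb KO 4 and 5 its adjusted p was 0.0503. Gsto1 reached 13.42, 13.31, 13.33, 13.31 and 13.28 in DKO villi, also above every Rb KO array (0.37 ± 0.07, adjusted p = 0.00646). Gstt3 was 10.07, 9.84, 9.88, 10.04 and 10.02 in DKO villi, between the other groups without touching either: it was 0.34 ± 0.09 above Rb KO (adjusted p = 0.033) and differed from control by -0.50 ± 0.09 (adjusted p = 0.00102). Gstm5, a mu-class GST that was not lower in Rb KO villi, was 8.91, 8.76, 8.58, 9.21 and 8.84 in control villi and 9.02, 8.88, 8.82, 9.31 and 8.83 in Rb KO villi. In DKO villi it was 9.71, 9.44, 9.30, 9.32 and 9.32, which is 0.44 ± 0.12 above Rb KO (adjusted p = 0.034), with Rb KO array 4 inside the DKO range.

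The calls of Gstm5 and Gstt3 against Rb KO were lost when single arrays were left out, and that of Gstt3 also with quantile normalisation or without Rb KO 4 and 5. Without DKO 1, the array with liver transcripts, 3 members passed (Gstm4, Gstm7 and Gsto1), and the same 3 passed without Rb KO 1, Rb KO 3, DKO 3 or DKO 4. Over all alternatives the adjusted p of Gstm5 ran from 0.0153 to 0.0787 and that of Gstt3 from 0.00859 to 0.0752. Lymphocyte markers were higher in the same comparison for 5 of 10, enteroendocrine markers for 4 of 9 and pancreatic markers for 2 of 7. The pancreas list had a median difference of 0.71, with 5 of 7 higher and 0 lower at an unadjusted p under 0.05 in limma. The part of these markers in the higher GST genes was not tested.

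Against control villi, DKO villi had 3 members higher and 2 lower, beside 12.9% and 6.32% of tested genes. Together they were 17.9% of the 28 tested members, near the 19.3% of all tested genes past the threshold. Groups did not overlap for 4 members, beside 15.7% of all tested genes. The higher members were Gsta4, Gstm5 and Sult1c2. Gsta4, the alpha-class GST that clears the lipid peroxidation product 4-hydroxynonenal, was 11.73, 11.95, 12.41, 11.73 and 12.94 in control villi and 13.14, 13.00, 13.14, 13.23 and 13.11 in DKO villi, with 12.36, 13.03, 12.14, 13.36 and 12.99 in Rb KO villi. All DKO arrays lay above all control arrays (0.97 ± 0.24, 1.97-fold, adjusted p = 0.0094), and Rb KO against control did not pass (0.63 ± 0.24, adjusted p = 0.054), though it did without control 5, Rb KO 1 or Rb KO 3. Without the female controls 1 and 4 the adjusted p of Gsta4 was 0.0645.

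Sult1c2, a sulfotransferase of phenols, was 6.37, 7.04, 6.87, 7.26 and 7.85 in control villi and 8.41, 8.05, 7.82, 8.44 and 8.10 in DKO villi, where array 3 lay just below the highest control array (1.09 ± 0.25, adjusted p = 0.00683). Gstm5 was 0.56 ± 0.12 above control with no overlap (adjusted p = 0.00406). The lower members were Gstt3 and Ugt2a3, as given above. Without DKO 1 the same 5 members passed (Gsta4 at 0.97, Sult1c2 at 1.03, Gstm5 at 0.48, Gstt3 at -0.52 and Ugt2a3 at -0.58). In the same comparison the crypt marker Lyz1 (1.1) and the pancreas marker Clps (0.59) were higher and the enterocyte marker Anpep (-0.52) was lower, of 9, 7 and 14 tested markers, with the call of Lyz1 lost without DKO 1, while 0 of 10 lymphocyte markers passed in limma, also at an unadjusted p under 0.05. The crypt marker list had a median difference of 0.84 and the pancreas list of 0.53. At an unadjusted p under 0.05 in limma, 4 of 7 pancreas markers were higher and 0 lower. With a crypt marker score in the model the same 5 members kept their calls. Beyond that score, the part of these markers and of the Gapdh difference was not tested.

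**Figure D2:**
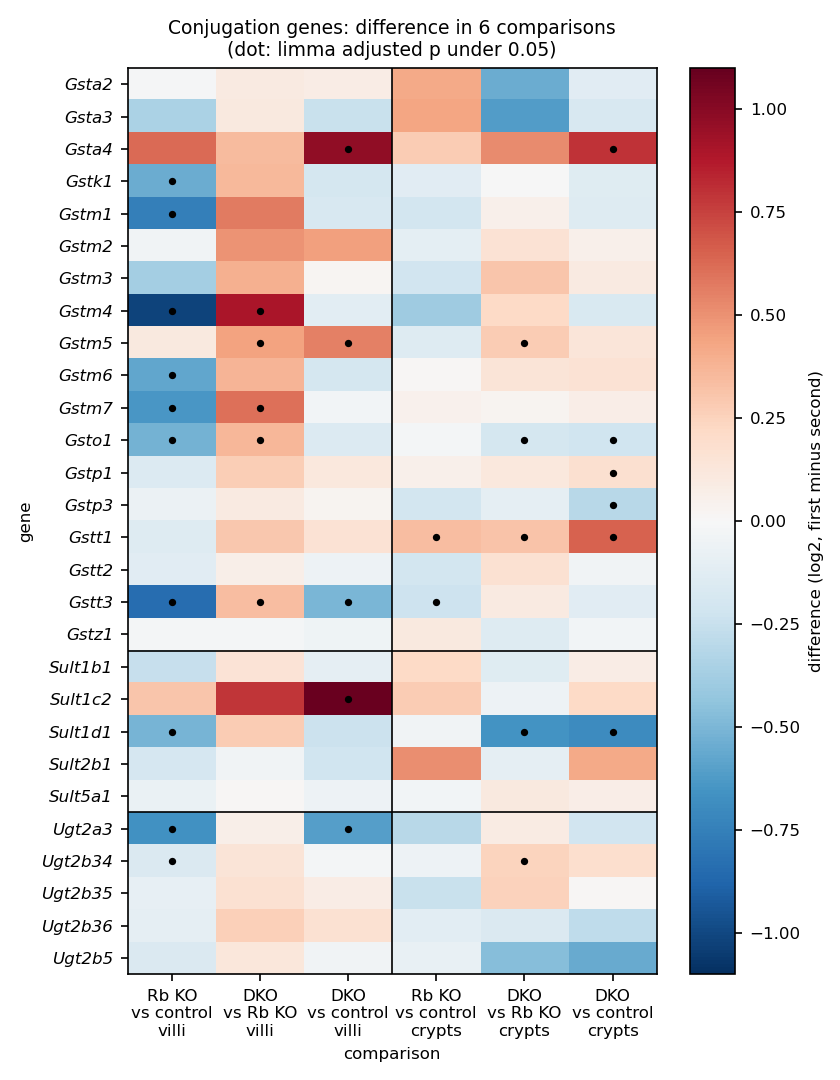
Log2 difference (colour, first group minus second) for the 28 tested conjugation genes (rows, with lines between GST, SULT and UGT genes) in the 6 genotype comparisons (columns, villi left and crypts right). A dot marks a limma adjusted p under 0.05, and the first column is blue in 25 of 28 rows while the second is red in 26.

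In crypts the genotype comparisons gave calls in both directions. Rb KO crypts against control crypts had 1 member higher (Gstt1) and 1 lower (Gstt3), beside 8.55% and 3.56% of tested genes. Together they were 7.14% of the 28 tested members, below the 12.1% of all tested genes past the threshold. The median difference was -0.05, and 2 members had groups that did not overlap, beside 10.5% of all genes. In the same comparison 3 of 9 enteroendocrine markers were lower (Gcg at -1.37, Gip at -0.79 and Cck at -0.66) and 1 higher (Sct at 0.41), 2 of 8 goblet markers were higher (Tff3 and Zg16), the enterocyte marker Ada was higher (0.69) and the crypt marker Ang4 lower (-0.40). Their part in the 2 calls was not tested beyond a crypt marker score. The count was not stable: it was 5 with quantile normalisation (1 higher, 4 lower), 5 with sex as a covariate (1 higher, 4 lower) and 6 with a crypt marker score in the model (0 higher, 6 lower).

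Gstt1 rose in crypts from control to Rb KO and again to DKO. Control crypts gave 10.51, 10.74, 10.51, 10.42 and 10.55, Rb KO crypts 10.98, 11.005, 10.82, 10.77 and 10.86, and DKO crypts 11.31, 11.39, 11.23, 11.11 and 10.97. Rb KO arrays lay above all control arrays (0.34 ± 0.08, adjusted p = 0.0117), DKO was 0.31 ± 0.08 above Rb KO with DKO array 5 inside the Rb KO range (adjusted p = 0.0163), and DKO was 0.65 ± 0.08 above control (1.57-fold, adjusted p = 3.21e-05). The first call was lost with a crypt marker score in the model or without controls 1 and 4, and the second without Rb KO 4 and 5. Gstt3, its neighbour, differed by -0.22 ± 0.05 in Rb KO crypts (10.45 to 10.57 against 10.68 to 10.78 in control crypts, adjusted p = 0.00525).

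DKO crypts against Rb KO crypts had 3 members higher (Gstm5, Gstt1 and Ugt2b34) and 2 lower (Gsto1 and Sult1d1), beside 5.72% and 8.44% of tested genes. Together they were 17.9% of the 28 tested members, beside 14.2% of all tested genes past the threshold. Groups did not overlap for 5 members, beside 12.8% of all genes. Sult1d1 was 12.07, 12.43, 12.15, 12.25 and 12.36 in Rb KO crypts and 11.85, 12.01, 11.41, 11.55 and 11.16 in DKO crypts, with no overlap (-0.66 ± 0.16, adjusted p = 0.0138). Gstm5 ranged from 10.23 to 10.55 in Rb KO crypts and from 10.67 to 10.78 in DKO crypts (0.28 ± 0.06, adjusted p = 0.00438). Ugt2b34 ranged from 13.29 to 13.52 in Rb KO crypts and from 13.56 to 13.78 in DKO crypts (0.24 ± 0.07, adjusted p = 0.0243), and this call was lost without Rb KO array 1 or 3 or DKO array 1 or 2.

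Gsto1 ranged from 13.34 to 13.45 in Rb KO crypts and from 13.01 to 13.31 in DKO crypts (-0.19 ± 0.06, adjusted p = 0.0358), a call lost under 11 of 22 alternatives, among them no filter, the replicate number as a block, only the 2 groups in the fit and the loss of Rb KO array 1, 2, 3 or 4 or DKO array 3 or 5. With a crypt marker score in the model 8 members passed, all higher, and the calls of Gstm5, Gsto1 and Sult1d1 were lost. Without Rb KO 4 and 5, 2 members passed, both higher, and 3 passed without Rb KO 1 or Rb KO 3. Crypt markers differed in the same comparison, with 3 of 9 higher in DKO crypts (Ang4 by 0.57, Slc12a2 by 0.52 and Itln1 by 0.32), and their part in the result beyond that covariate was not tested. Also higher were 2 of 10 lymphocyte markers (Itgae by 0.71 and Cd3d by 0.36), 2 of 14 enterocyte markers (Slc2a2 by 0.92 and Slc5a1 by 0.51) and 1 of 7 pancreas markers (Clps by 0.71, with a list median of 1.19). The calls of Cd3d, Slc2a2 and Slc5a1 were lost without DKO 1. The goblet marker Tff3 was lower (-0.16), and the part of these lists was not tested.

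DKO crypts against control crypts had 3 members higher (Gsta4, Gstp1 and Gstt1) and 3 lower (Gsto1, Gstp3 and Sult1d1), beside 12.7% and 10.6% of tested genes. Together they were 21.4% of the 28 tested members, near the 23.3% of all tested genes past the threshold. Groups did not overlap for 5 members, beside 1916 of the 12736 tested genes. Gsta4 was 10.87, 11.84, 11.55, 11.59 and 11.85 in control crypts and 12.28, 12.72, 12.40, 12.29 and 12.01 in DKO crypts (0.80 ± 0.21, adjusted p = 0.0108), again with no overlap and again lost without controls 1 and 4 (adjusted p = 0.0582). Sult1d1 was 11.72, 12.40, 12.35, 12.47 and 12.51 in control crypts, where array 1 fell within the DKO range (-0.69 ± 0.16, adjusted p = 0.00552). Gstp1 and Gstp3, neighbouring pi-class genes, differed in opposite directions, by 0.18 ± 0.04 (adjusted p = 0.00824) and -0.31 ± 0.09 (adjusted p = 0.017), the latter call lost with only the 2 groups in the fit (adjusted p = 0.0524). Gsto1 differed by -0.22 ± 0.06 (adjusted p = 0.0122). Of 10 lymphocyte markers 4 were higher and 0 lower in the same comparison, the list averaging 7.33 to 7.75 across control crypts and 7.73 to 8.17 across DKO crypts. Of 9 enteroendocrine markers 2 were lower (Tph1 at -0.54 and Chga at -0.47). Of 14 enterocyte markers 1 was higher (Ada by 0.41), with a list median of 0.23. At an unadjusted p under 0.05 in limma 6 enterocyte markers were higher and 0 lower. The crypt marker Itln1 (0.20, lost without DKO 1) and Cps1 of the liver list (0.22) were also higher, of 9 and 4 tested. The pancreas list had a median difference of 1.05, with 0 of 7 past the threshold. Beyond a crypt marker score in the model, the part of these lists in these differences was not tested. Without DKO 1 the same 6 members passed.

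**Figure D3:**
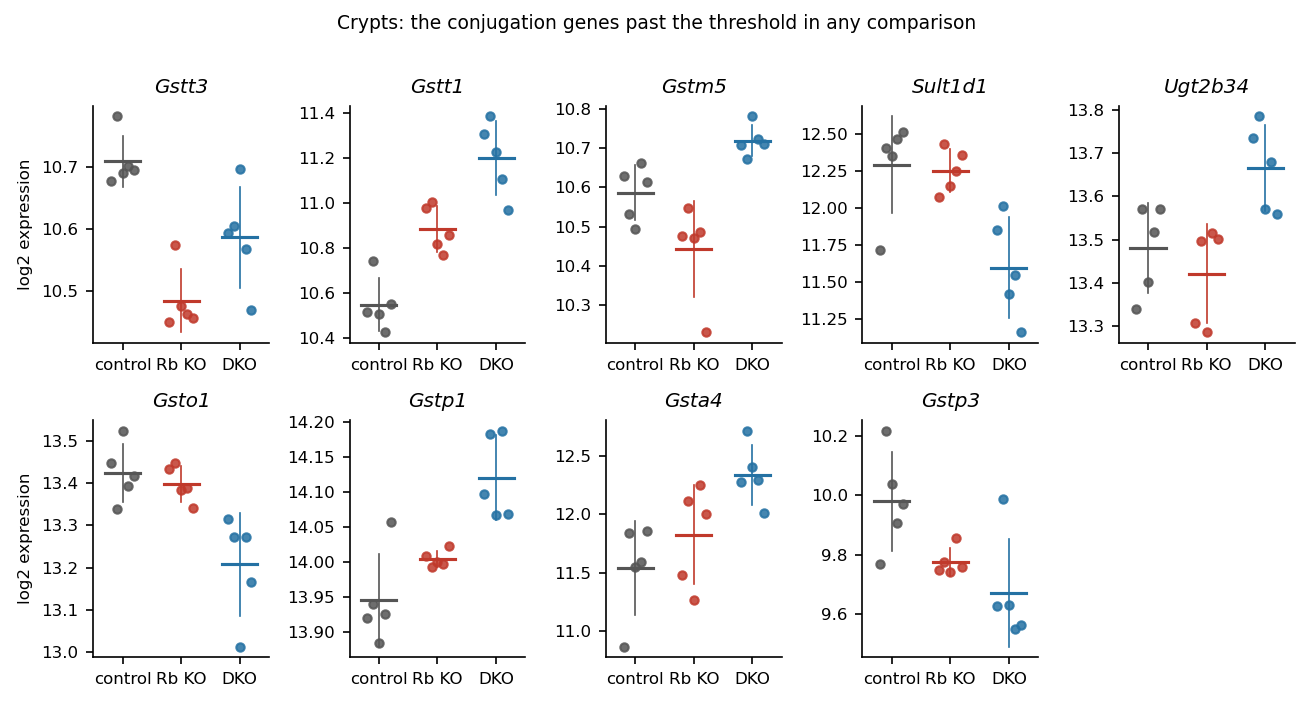
Log2 expression (y axis, a separate scale for each gene) of the 9 conjugation genes past the threshold in any crypt comparison, with 1 point per array for control, Rb KO and DKO crypts, the mean as a horizontal line and the SD as a vertical line (n = 5). Gstt1 is higher from control to Rb KO to DKO, and Sult1d1 is lowest in DKO.

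The effect of Rb loss differed between the fractions for 6 members, all more negative in villi: Gstm6, Gstm7, Gsto1, Gstt1, Gstt3 and Sult2b1. The background of this interaction test was 8.13% of tested genes more negative in villi and 8.03% more positive, and limma gave 10 members more negative and 0 more positive at an unadjusted p under 0.05. Gsto1 differed by -0.52 in villi and -0.03 in crypts (interaction -0.50 ± 0.09, adjusted p = 0.000324), and Gstt3 by -0.83 and -0.22 (interaction -0.61 ± 0.10, adjusted p = 0.000118). Gstm7 gave an interaction of -0.68 ± 0.18 (adjusted p = 0.0104) and Gstm6 of -0.58 ± 0.19 (adjusted p = 0.0313). For Gstt1 and Sult2b1, a sulfotransferase of cholesterol and other sterols, the crypt differences were above 0 (0.34 and 0.51) and the villus differences below 0 (-0.14 and -0.19), of which only that of Gstt1 in crypts passed, with interactions of -0.48 ± 0.14 (adjusted p = 0.0167) and -0.70 ± 0.20 (adjusted p = 0.0172).

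Lymphocyte markers moved the same way in this test, with 6 of 10 more negative in villi, 0 more positive and a median interaction of -0.65. Of 9 enteroendocrine and 14 enterocyte markers 1 each was more negative, and 1 of 8 goblet markers was more positive. The part of these markers in the 6 interactions was not tested.

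Villus and crypt arrays of the same genotype and number appeared to come from the same animal. With the animal as a block 9 members passed, the same 6 together with Gstm4, Sult1b1 and Sult1d1, all more negative in villi, beside 12.5% of tested genes more negative and 11.4% more positive in that fit. The added effect of Myc loss differed between the fractions for 2 members, Gsto1 (0.56 ± 0.09, adjusted p = 0.000812) and Sult1d1 (0.93 ± 0.21, adjusted p = 0.0128), beside 2.65% of tested genes more positive in villi and 1.08% more negative. Both members were above 0 in villi and below 0 in crypts, but the villus difference of Sult1d1 (0.28) did not pass. With the animal as a block 4 passed, adding Gstm4 and Gstm7, all 4 more positive, beside 7.29% more positive and 3.61% more negative. Without DKO 1 the same 2 members passed in the fit without the block. Without control 5 the number of members with a different Rb effect was 3, and without Rb KO 4 and 5 the number with a different Myc effect was 1.

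**Figure D4:**
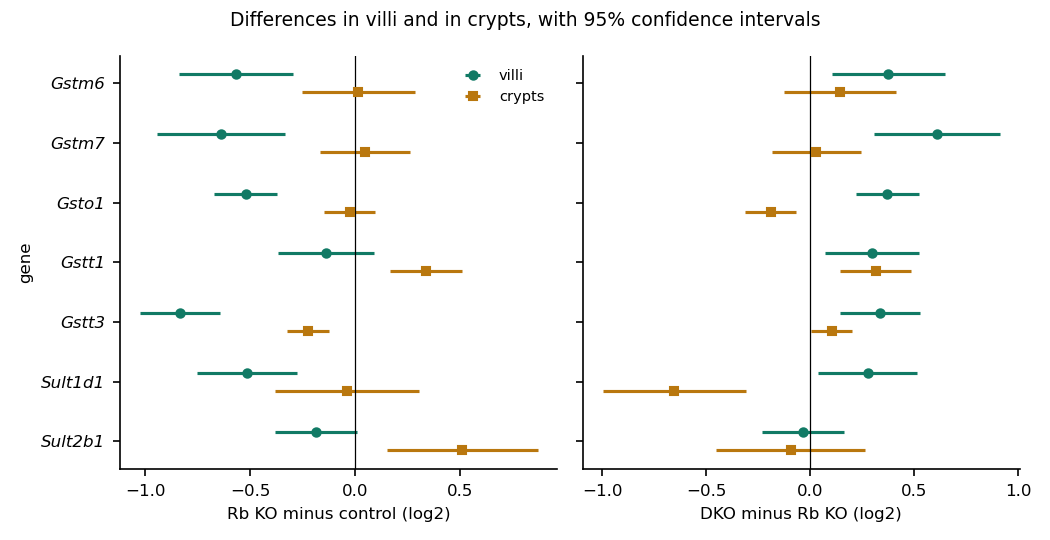
Log2 differences (x axes) of the 7 conjugation genes past the threshold in either interaction test, in villi (circles) and crypts (squares), for Rb KO minus control (left) and DKO minus Rb KO (right), with 95% confidence intervals. In the right panel the villus and crypt differences lie on opposite sides of 0 for Gsto1 and for Sult1d1, and that of Sult1d1 in villi did not pass.

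Among the alpha-class genes, Gsta2 and Gsta3 varied widely between the Rb KO villus arrays (SD 1.09 and 1.00). Their SDs were 0.50 and 0.22 in control villi and 0.12 and 0.15 in DKO villi. In the crypt groups the SD ran from 0.48 to 0.65 for Gsta2 and from 0.34 to 0.64 for Gsta3. Gsta2 was 8.64, 9.43, 8.10, 10.89 and 9.92 in Rb KO villi and 7.92, 8.51, 7.63, 8.71 and 9.25 in Rb KO crypts, with arrays 4 and 5 the highest in both fractions. Gsta3 was 8.16, 8.08, 7.86, 10.18 and 9.36 in Rb KO villi, and 8.58, 8.88, 8.38, 9.46 and 9.37 in Rb KO crypts, with the same 2 arrays on top. Neither passed in any comparison, and the interval of the Rb KO difference in villi was -0.84 to 0.81 for Gsta2 and -1.06 to 0.37 for Gsta3, both of which hold the median of the mu class (-0.57).

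Of the members below the filter, 3 were high on single villus arrays. Ugt2b38 was 10.61 and 11.83 in control villi 2 and 5 and 8.74 in DKO villi 1, beside 4.09 to 4.72 on the 12 other villus arrays. Ugt2b1 was 6.62 and Sult2a8 5.72 on the same DKO array, where Alb and Fga (8.60) also stood apart. The pair of control arrays had Alb at 6.50 and 6.10, within the range of the others, and the lowest crypt marker scores of all villus arrays (-1.33 and -1.20). The crypt arrays of controls 2 and 5 had Ugt2b38 at 5.05 and 5.83, above the 3 other control crypt arrays. Ugt2b genes are close paralogs, and this probe set is the only one for its gene.

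**Figure D5:**
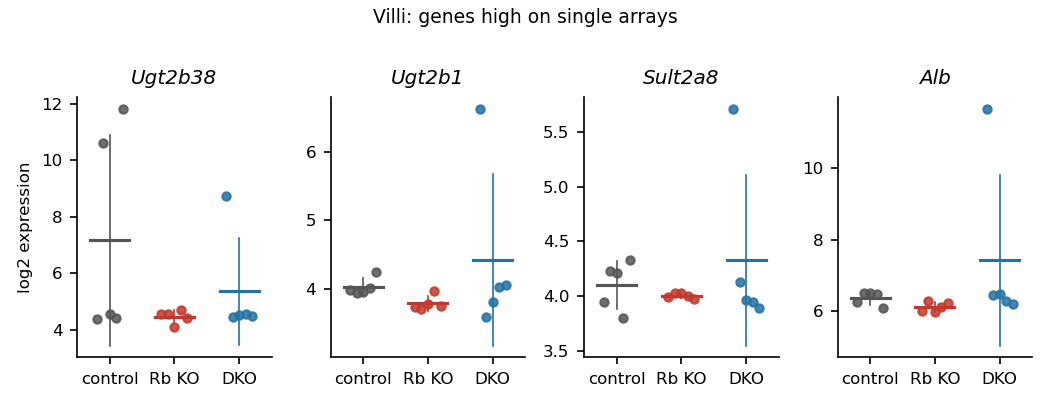
Log2 expression (y axis, a separate scale for each gene) in villi of Ugt2b38, Ugt2b1 and Sult2a8, which stand out on single arrays, beside the liver marker Alb, with 1 point per array, the mean as a horizontal line and the SD as a vertical line (n = 5 per genotype). A single DKO array is high in all 4 panels, and 2 control arrays are high in Ugt2b38, at 10.61 and 11.83.

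The genes that feed and drain conjugation moved in both directions. In Rb KO villi 5 of 12 tested genes of glutathione supply and recycling were lower and 0 higher, beside the 17.5% and 16.8% of all tested genes that apply to every list in Rb KO villi, among them Gclm, the modifier subunit of the enzyme that starts glutathione synthesis (-0.62 ± 0.12, adjusted p = 0.000864), Chac2, which breaks glutathione down (-0.88 ± 0.18, adjusted p = 0.00156), the NADPH source Me1 (-0.72 ± 0.21, adjusted p = 0.0149) and 5-oxoprolinase Oplah (-0.48 ± 0.15, adjusted p = 0.0194). In DKO against Rb KO villi 2 of the 12 were higher and 0 lower, beside 6.56% and 1.96% of all tested genes. They were Me1 (1.07 ± 0.21) and Oplah (0.65 ± 0.15), and both calls held without DKO 1. The members that moved include enzymes of both synthesis and breakdown. Of 12 genes for the donors of sulfate and glucuronic acid, 1 was lower in Rb KO villi, the sulfate transporter Slc26a2 (-0.82 ± 0.17, adjusted p = 0.00167), and 1 higher, the PAPS transporter Slc35b2 (0.29 ± 0.10, adjusted p = 0.0324). Of 9 exporters, Abcg2, which carries sulfate conjugates, was lower in Rb KO villi (-0.36 ± 0.12, adjusted p = 0.0279) and higher in DKO against Rb KO villi (0.43 ± 0.12, adjusted p = 0.035), a call lost without DKO 1 (adjusted p = 0.0749), and Abcc5 was lower in Rb KO villi (-0.20 ± 0.06).

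Regulators and their other targets were counted in the same way. Of 4 tested genes of the aryl hydrocarbon receptor battery, 0 passed in any of the 6 comparisons, and at an unadjusted p under 0.05 limma gave 1, lower in Rb KO villi. Cyp1a1, whose rat promoter drives the Cre, averaged 11.52 ± 1.03 (SD, n = 5) in control villi, 10.53 ± 0.69 after Rb loss and 11.26 ± 0.61 after the double loss. In crypts the means were 8.12 ± 0.93, 8.51 ± 0.91 and 7.64 ± 0.75 in the same order, and Cyp1a1 passed in no comparison. Of 15 Nrf2 targets outside the 3 families, 3 were higher (Tkt, Blvrb and Taldo1) and 2 lower in Rb KO villi, near the background. In DKO against control crypts 4 were higher and 0 lower, beside 12.7% and 10.6% of tested genes: Srxn1 (0.70), which reduces oxidised peroxiredoxins, Taldo1 (0.32), Hmox1 (0.26) and Txn1 (0.14), with 5 higher and 0 lower at an unadjusted p under 0.05 in limma. In DKO against Rb KO crypts 3 were higher and 1 lower, beside 5.72% and 8.44% of tested genes. Of 9 targets of PXR and CAR, 3 were lower in Rb KO villi (Cyp2c55 at -1.83 ± 0.29, Cyp3a25 at -0.53 ± 0.11 and Cyp2b10 at -0.38 ± 0.11) and 1 higher (Ces2a at 0.40 ± 0.14), and Cyp2c55 was 1.31 ± 0.29 higher in DKO than in Rb KO villi (adjusted p = 0.0145; 0.0342 without DKO 1).

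Of 17 receptors and factors that regulate such genes, 5 were lower and 3 higher in Rb KO villi, with the vitamin D receptor Vdr at -0.64 ± 0.18 (adjusted p = 0.0119), CAR (Nr1i3) at -0.38 ± 0.11 (adjusted p = 0.0132) and Foxa1 at 0.42 ± 0.11 (adjusted p = 0.00825). Vdr was also lower in DKO against control crypts (-0.73 ± 0.09, adjusted p = 4.41e-05). A further list held 20 tested enzymes that are not members, with other conjugating enzymes, epoxide hydrolases and glutathione peroxidases among them. Of these, 4 were lower and 2 higher in Rb KO villi. Tpmt, the thiopurine methyltransferase, was among the lower ones (-0.42 ± 0.08, adjusted p = 0.000602), and in DKO villi it was 0.94 ± 0.08 above Rb KO (adjusted p = 1.69e-05) and 0.52 ± 0.08 above control (adjusted p = 0.000211), by 0.91 and 0.49 without DKO 1, both past the threshold.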

How the data were processed

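Total RNA from 30 samples (villi or crypts of 3 genotypes, 5 arrays each) was labelled with biotin and hybridised, per the labels' protocols. The authors deposited log2 expression values for 45101 probe sets, and the normalisation, summarisation and genome build are not given in the sources used here. Symbols came from the platform annotation: 34958 probe sets carry 1 symbol, 932 several and 9211 none, and those with several name no gene here. The number of arrays limits the precision.

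Within each tissue, limma 3.58.1 (R 4.3.3) fitted 3 genotypes over 15 arrays without covariates to 12736 genes whose mean passed the 30th percentile (6.03), with two-sided p-values and Benjamini-Hochberg adjustment. Effects were compared between tissues as an interaction over 30 arrays. The procedure was tested on simulated data with independent noise for each gene. Of 100 genes changed 1.5-fold it recovered 84% to 88% in the 6 genotype comparisons. For the interactions it recovered 54% (Rb loss) and 77% (Myc loss). The simulation held no shared animals, sexes or transcripts of other tissues, so it cannot show how the procedure fares with those. Nothing in the labels says that arrays of a group come from separate animals, so p-values measure the spread between these samples, which may in part be technical. Xist marked arrays of both sexes in every group, so no group came from a single animal. That every array of a group came from its own animal is not shown.

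Deviations from the group mean correlated between the villus and crypt arrays that share a genotype and a number (r from 0.26 to 0.58 for all 15), which were taken as 1 animal from the data, not the labels. The same number in different genotypes cannot mark 1 animal. Those pairs had r from -0.20 to 0.43 in villi (median 0.19, 8 of 15 above 0.1). In crypts they had r from -0.29 to 0.42 (median -0.01, 4 of 15 above 0.1). Both ranges overlap that of the pairs taken as 1 animal, and what the shared numbers reflect was not tested.

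The members and lists were chosen with earlier results of these data known. Named were Rb1, Myc and Cyp1a1, members past the threshold where 10 or fewer passed, the brightest member of each class, and up to 4 genes of smallest p per list. Gsta2, Gsta3, Ugt2b38, Ugt2b1 and Sult2a8 were picked after their values were seen. Promoter sequences are RefSeq's on GRCm38.p6. The alternatives are other probe set rules, filters, normalisations, variance models, covariates, thresholds and arrays left out. Ugt1a and the other probe sets with several symbols were not analysed here.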

Additional observations from a re-analysis of the deposited data

Results flagged for a closer look

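Among 246 groups of 5 arrays (41 genes in 6 groups), 18 held an array whose gap to its neighbour exceeded 0.71 of the group's range, the 95% critical value of Dixon's test, where chance alone flags about 1 group in 20. On the villus array of DKO 1, Ugt2b38 was 8.74 (others 4.47 to 4.57), Ugt2b1 6.62 (others 3.6 to 4.06), Sult2a8 5.72 (others 3.89 to 4.12) and Gstm7 9.75 (others 9.35 to 9.46). On the crypt array of DKO 2, Gsta2 was 8.72, Gstm4 9.44, Gstp3 9.99 and Ugt2b5 11.53, each above the 4 others of its group. Gstt3 was high in control crypts 2 at 10.78 and in Rb KO crypts 2 at 10.57. Sult1d1 was low in control crypts 1 at 11.72, and Gstm5 was low in Rb KO crypts 5 at 10.23. Sult2b1 was high in Rb KO villi 3 at 12.44. Among dimmer genes, Sult1a1 was 6.91 in DKO crypts 4, Sult3a1 3.37 in DKO crypts 5, Sult4a1 5.28 and Ugt2b1 4.26 in control villi 5, and Sult5a1 6.78 in control villi 4.

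The effect of Rb loss differed between villi and crypts for Gstm6 (-0.58), Gstm7 (-0.68), Gsto1 (-0.50), Gstt1 (-0.48), Gstt3 (-0.61) and Sult2b1 (-0.70), given as the villus minus the crypt difference on the log2 scale, each past the threshold of limma's interaction test. The added effect of Myc loss differed for Gsto1 (0.56) and Sult1d1 (0.93).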

How the results depend on the processing

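Of the 33 gene differences past the threshold in the 6 genotype comparisons, 18 kept their call under every alternative other than the stricter thresholds, 15 lost it under at least 1, and 0 reversed; 676 of 738 such values kept the call. Counting both stricter thresholds as well, 9 kept it. With a 1.5-fold minimum, 5 members passed in Rb KO against control villi, 2 in DKO against Rb KO villi, 3 in DKO against control villi, 0 in Rb KO against control crypts, 1 in DKO against Rb KO crypts and 3 in DKO against control crypts. At an adjusted p under 0.01 the counts were 2 in DKO against Rb KO villi, 1 in Rb KO against control crypts, 1 in DKO against Rb KO crypts, 3 in DKO against control crypts, 2 for the interaction of Rb loss and 1 for that of Myc loss. Rb KO against control crypts gave 5 members with quantile normalisation, 5 with sex in the model and 6 with the crypt marker score in the model, and DKO against Rb KO crypts gave 8 with that score and 2 without Rb KO 4 and 5. Without Rb KO 4 and 5 the interaction of Myc loss gave 1.

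Leaving out single arrays gave 8 to 12 members for Rb KO against control villi, 3 to 5 for DKO against Rb KO villi, 5 to 6 for DKO against control villi, 2 to 3 for Rb KO against control crypts, 3 to 5 for DKO against Rb KO crypts, 6 to 7 for DKO against control crypts, 3 to 7 for the interaction of Rb loss and 2 to 3 for that of Myc loss. The cause of these shifts was not tested. With the replicate number as a block, though numbers pair no animals across genotypes, the counts were 10, 6 and 6 in villi and 3, 4 and 7 in crypts. With the animal as a block the interactions gave 9 for Rb loss and 4 for Myc loss. The filter over all probe sets was added after the data were seen. Array signals near the filter limit what can be said of the 13 dim members.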

Other observations

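Among genes next to the conjugation families, Ephx1, the microsomal epoxide hydrolase whose products are conjugated, averaged 10.36 across control villi, 10.19 across Rb KO villi and 11.38 across DKO villi. It was 1.19 ± 0.32 higher in DKO than in Rb KO villi (adjusted p = 0.0342) and 1.03 ± 0.32 higher than in control villi (adjusted p = 0.0364) in limma. Both calls were lost without DKO 1, the array with liver transcripts, where the differences were 1.16 (adjusted p = 0.0684) and 0.99 (adjusted p = 0.0659). In crypts the DKO level was 0.66 ± 0.17 above Rb KO (adjusted p = 0.0198; 0.041 without DKO 1). Gstcd, which carries a GST-like domain and lies outside the GST classes, was 0.85 ± 0.12 higher in Rb KO than in control villi (adjusted p = 9.95e-05), where 10 members were lower. In crypts it was 0.21 ± 0.06 higher in Rb KO than in control (adjusted p = 0.0284) and differed by -0.29 ± 0.06 between DKO and Rb KO (adjusted p = 0.00354).

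Of 5 tested genes listed for the cleavage of conjugates, Arsb, a lysosomal arylsulfatase, was higher than control in Rb KO villi (0.41 ± 0.11, adjusted p = 0.00933), DKO villi (0.68 ± 0.11, adjusted p = 0.000435), Rb KO crypts (0.26 ± 0.08, adjusted p = 0.0416) and DKO crypts (0.38 ± 0.08, adjusted p = 0.00237), all in limma. Without DKO 1 both DKO differences of Arsb passed, at 0.74 in villi and 0.43 in crypts. Whether Arsb acts on the conjugates named here was not tested. Others of the list went both ways against control in limma. Gusb was lower in DKO crypts (-0.355 ± 0.08, adjusted p = 0.00289) and Anpep in DKO villi (-0.52 ± 0.14, adjusted p = 0.014). Arsa was higher in DKO villi (0.32 ± 0.09, adjusted p = 0.0235), a call lost without DKO 1 (adjusted p = 0.0535).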
